A study of Mus musculus with 2 samples.

Results

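The 6 mouse Dlx genes lie as 3 neighbouring pairs. Enrichment peaks called in intervals around them were set side by side in 2 libraries from E14 cells, a line of mouse embryonic stem cells. Peaks were taken from 3 intervals of the mm9 genome, and a peak belonged to an interval if at least 1 bp of it lay inside. The interval of Dlx1 and Dlx2 ran from 71320001 to 71430000 on chromosome 2, that of Dlx5 and Dlx6 from 6760001 to 6880000 on chromosome 6, and that of Dlx3 and Dlx4 from 94930001 to 95060000 on chromosome 11. They held 20 of the 45579 peaks of the shDnmt3L library and 14 of the 55292 peaks of the shGFP library. The genes were chosen by earlier results of these lists, namely the width, score and lack of a control partner of certain peaks. The widest peak in the Dlx1 and Dlx2 interval was such a peak. The differences described here were thus part of the choice and carry no test.

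Both cultures were E14 embryonic stem cells transfected with a short hairpin, against Dnmt3L in the shDnmt3L library and against GFP, a sequence foreign to these cells, in the shGFP control. Each group was 1 library without a replicate, so every difference is one between these libraries and has no replicate error. Titles and design text give the assay as MeDIP for 5-methylcytosine, whereas the extraction protocol describes a GLIB capture of 5-hydroxymethylcytosine with the Hydroxymethyl Collector kit. The peaks are for that reason called enrichment peaks without naming the modification. The read depth of both libraries is unknown, and the level of Dnmt3L in them was not analysed here.

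Dlx genes encode homeodomain transcription factors related to Distal-less of the fruit fly. In mammals the members of a pair are transcribed towards each other and share enhancers, and the family acts in the forebrain, the jaw, the limbs and the skin. Many developmental homeobox genes of this kind are known in embryonic stem cells as silent Polycomb targets that become active in differentiated lineages. Dnmt3L has no catalytic activity of its own and is known to stimulate the de novo methyltransferases Dnmt3a and Dnmt3b.

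CpG dinucleotides are the main sites of both cytosine modifications in mammalian DNA, and the promoters of Dlx1 and Dlx2 are shown to give their density at the pair with the widest peak. The RefSeq promoter table, on build GRCm38.p6, held 2 of the 6 Dlx genes, each as 250 bases before and 50 after the start. The Dlx1 promoter was chr2:71529195-71529494 on the plus strand and the Dlx2 promoter chr2:71546705-71547004 on the minus strand of that build. These positions are not those of mm9, in which the peaks are given, so no promoter was placed under a peak. Every CpG is in capitals.
Dlx1: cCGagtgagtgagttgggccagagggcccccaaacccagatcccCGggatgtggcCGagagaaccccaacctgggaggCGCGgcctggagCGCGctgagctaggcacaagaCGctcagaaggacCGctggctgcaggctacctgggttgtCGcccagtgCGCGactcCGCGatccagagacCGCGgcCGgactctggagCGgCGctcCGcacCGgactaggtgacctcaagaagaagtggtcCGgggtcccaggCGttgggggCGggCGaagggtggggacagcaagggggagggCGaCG
Dlx2: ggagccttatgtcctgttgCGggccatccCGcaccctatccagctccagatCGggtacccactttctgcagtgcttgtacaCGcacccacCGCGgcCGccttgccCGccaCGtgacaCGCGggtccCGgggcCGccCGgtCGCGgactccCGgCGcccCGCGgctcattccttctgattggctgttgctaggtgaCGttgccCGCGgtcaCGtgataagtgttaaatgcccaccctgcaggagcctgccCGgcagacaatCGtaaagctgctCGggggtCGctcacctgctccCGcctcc
The Dlx1 promoter held 27 CpGs and the Dlx2 promoter 29, against a median of 7 over 32851 promoters of the same length in the table. At least as many CpGs were found in 15.5% of all promoters for Dlx1 and in 12.9% for Dlx2. The C and G content was 69.3% in Dlx1 and 66.3% in Dlx2, against a median of 52.7%. Promoters of the other Dlx genes were not held, so CpG density was neither compared among the pairs nor set against peak width. In the gene table of that build no other protein-coding gene lay between the members of a pair. The flanking protein-coding genes were Metap1d and Itga6 for Dlx1 and Dlx2, Sem1 and Sdhaf3 for Dlx6 and Dlx5, and Itga3 and Tac4 for Dlx3 and Dlx4.

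All 3 pairs had more of their interval under peaks in the shDnmt3L library. Together the intervals, 360.0 kb in all, had 95.3 kb under shDnmt3L peaks and 34.7 kb under shGFP peaks, a ratio of 2.74. Over the whole lists the covered length was 124 Mb in shDnmt3L and 118 Mb in shGFP, a ratio of 1.05. Of the Dlx length, 29.3 kb was under peaks of both libraries, 66.0 kb under shDnmt3L peaks alone and 5.47 kb under shGFP peaks alone. A score is the value that the authors' peak caller gave to a peak, and it says only how a peak stands within its own list.

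**Figure D1:**
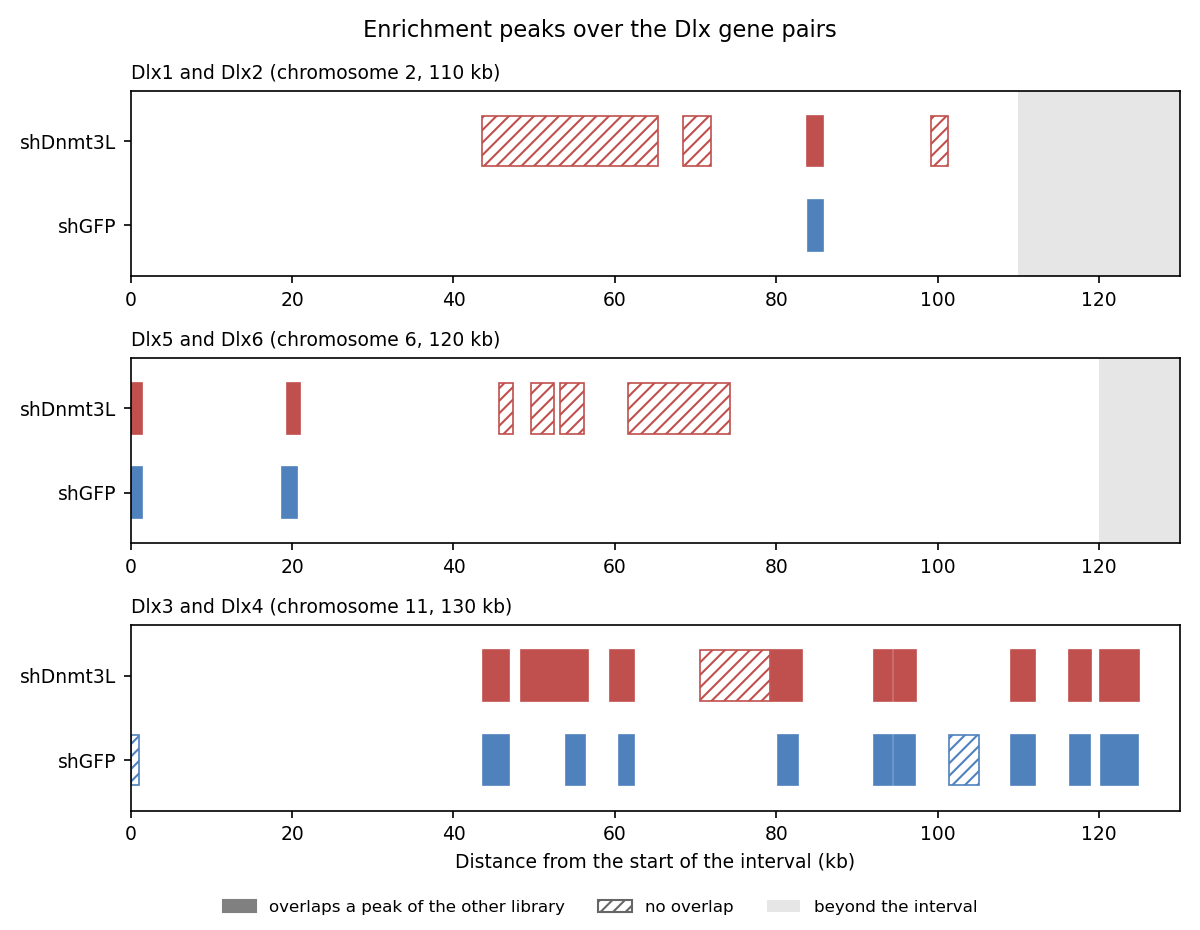
Peaks over the 3 Dlx intervals, drawn to scale as kb from the start of each interval, with the shDnmt3L library above the shGFP library. Filled boxes overlap a peak of the other library by at least 1 bp and hatched boxes do not; the hatched boxes number 8 of 20 in shDnmt3L and 2 of 14 in shGFP.

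The Dlx1 and Dlx2 interval had 4 peaks in shDnmt3L and 1 peak in shGFP. Dlx1 and Dlx2 are known as regulators of GABAergic interneuron development in the forebrain. The covered length was 29.3 kb, or 26.7% of the interval, in shDnmt3L and 1.89 kb, or 1.72%, in shGFP, a ratio of 15.6. With the interval widened by 50 kb at each end there were 6 peaks in shDnmt3L and 5 in shGFP, and the covered length was 34.1 kb in shDnmt3L and 10.5 kb in shGFP, a ratio of 3.24. The size of the ratio and the contrast in peak number thus depended on the interval. Within the interval as given, a single shDnmt3L peak from 71363503 to 71385335, 21.8 kb wide, made up 74.4% of the covered length. It was the 16th widest of the whole shDnmt3L list and the fifth widest of the 5724 shDnmt3L peaks without a shGFP overlap. Its score of 1852, the highest of this pair, ranked 57th of the list.

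The wide peak stood inside a long stretch of 95.3 kb, from 71308627 to 71403890, in which the shGFP list had no peak. The shDnmt3L list also had no peak between 71308415 and the start of the wide peak. A second shDnmt3L peak of 3.44 kb, from 71388455 to 71391895 with a score of 91.5, lay 3119 bp beyond the wide peak. The third unshared shDnmt3L peak, from 71419195 to 71421327, was 2133 bp wide and had a score of 64.1, at the 20.9th percentile of its list. The remaining shDnmt3L peak, from 71403830 to 71405771, was 1942 bp wide and matched the lone shGFP peak of 1887 bp, from 71403891 to 71405777. These matched peaks had scores at the 43.0th percentile in shDnmt3L and at the 26.5th percentile in shGFP. The pair thus held 1 site that both lists called at nearly the same edges, and 27.4 kb in peaks that the shGFP list lacked.

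The Dlx5 and Dlx6 interval had 6 peaks in shDnmt3L and 2 in shGFP. Dlx5 and Dlx6 are known for their roles in the lower jaw, the limbs and the skeleton. The covered length was 23.3 kb, or 19.4% of the interval, in shDnmt3L and 3.29 kb, or 2.74%, in shGFP, a ratio of 7.08, and the ratio was 7.01 in the widened interval. The widest shDnmt3L peak, from 6821674 to 6834327, was 12.7 kb wide and made up 54.3% of the covered length. It was also the highest-scoring, with a score of 663, and ranked 111th by width and 854th by score in its list.

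Along with it, 3 more shDnmt3L peaks without a shGFP overlap lay at lower coordinates. They were 3053 bp wide from 6813168 to 6816220 with a score of 117, 2848 bp wide from 6809585 to 6812432 with a score of 125, and 1762 bp wide from 6805617 to 6807378 with a score of 55.5. The 4 peaks formed a run from 6805617 to 6834327, 28.7 kb long, of which 70.8% was under shDnmt3L peaks and 0 kb under shGFP peaks. The run in the Dlx1 and Dlx2 interval, its widest peak with the peak next to it, was of a like length, 28.4 kb, and 89.0% of it was under shDnmt3L peaks. Peaks were joined into a run when they lay within 10 kb of each other, a distance set after the peaks were seen.

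The shGFP list had no peak at all between 6780629 and 7056785, a stretch of 276 kb that holds the whole run and continues past the end of the interval. Most of this stretch lacked peaks in shDnmt3L too. The shDnmt3L peaks wholly within it were those of the run, with 20.3 kb, and the next shDnmt3L peak after the run began at 7056403. The 2 peaks that both libraries shared lay at the other side of the interval. The first had widths of 1483 bp in shDnmt3L and of 1424 bp in shGFP, with scores at the 57.6th percentile in shDnmt3L and at the 69.0th in shGFP. The highest-scoring shGFP peak of this pair was this one, from 6759960 to 6761383. The second had widths of 1587 bp in shDnmt3L and of 1910 bp in shGFP, and 81.1% of the shDnmt3L peak lay under the shGFP peak. It was the widest shGFP peak of this pair, from 6778719 to 6780628. Its score was at the 22.5th percentile in shDnmt3L and at the 6.70th in shGFP.

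The Dlx3 and Dlx4 interval differed from the others in being well covered in both libraries. Dlx3 is known for its part in the epidermis, hair and teeth. The covered length was 42.6 kb, or 32.8% of the interval, in shDnmt3L and 29.6 kb, or 22.7%, in shGFP, a ratio of 1.44. Peaks numbered 10 in shDnmt3L and 11 in shGFP, and 9 of them overlapped in each list. When an overlap of 50% of both peaks was asked for, the peaks without a partner were 2 of 10 in shDnmt3L and 3 of 11 in shGFP. At 1 bp they were 1 and 2, so sharing here depended on the overlap rule. Over the whole lists the share without a partner at 1 bp was 12.6% in shDnmt3L and 25.5% in shGFP. The list shares under the 50% rule are not given here, so these counts are not read as a result about the pair. With the interval widened by 50 kb at each end the numbers were 22 in shDnmt3L and 20 in shGFP, so which library had more depended on the interval. Of the shGFP covered length, 83.6% was also under shDnmt3L peaks. For Dlx1 and Dlx2 this share was 99.7% and for Dlx5 and Dlx6 81.1%.

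Of the 17.9 kb under shDnmt3L peaks alone at Dlx3 and Dlx4, most lay in 2 wide peaks. The widest, from 95000598 to 95009261, was 8664 bp wide with a score of 818, ranked 531st of its list, and had no shGFP overlap. It filled part of a 17.9 kb stretch without a shGFP peak and ended 40 bp before a shared shDnmt3L peak of 3947 bp. The highest-scoring, from 94978350 to 94986670, was 8321 bp wide with a score of 869, ranked 454th. It lay over a shGFP peak of 2323 bp, from 94983969 to 94986291, and began 5619 bp before it, whereas the ends were 379 bp apart. Beside these, the widest shGFP peak was 4570 bp, from 95050236 to 95054805, and its shDnmt3L match was 4857 bp.

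Of the other shared sites of this pair, 2 were also over 1 kb wider in shDnmt3L. The shDnmt3L peak from 95009302 was 3947 bp wide against 2543 bp for its shGFP match, and that from 94989380 was 3046 bp against 1890 bp. The remaining 6 were between 29 and 287 bp wider in shDnmt3L. Widths were 2711 bp in shDnmt3L and 2570 bp in shGFP at the highest-scoring shGFP peak, which spans 95024582 to 95027151, and its score percentiles were 98.0 in shDnmt3L and 99.0 in shGFP. The shared peak with a shGFP position of 94973724 to 94976882 had widths of 3188 bp in shDnmt3L and of 3159 bp in shGFP.

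Within the 3 intervals, the 2 shGFP peaks without a shDnmt3L overlap both lay at Dlx3 and Dlx4. One was 3772 bp wide, from 95031386 to 95035157, with a score of 63.5 at the 21.6th percentile. The other was 2857 bp wide with a score of 103, from 94928215 to 94931071, and only 1071 bp of it lay inside the interval. The closest shDnmt3L peak was 3929 bp from the first of these and 3930 bp from the other. With the intervals widened by 50 kb, 2 of 5 shGFP peaks were unshared at Dlx1 and Dlx2 as well, and 3 of 20 at Dlx3 and Dlx4. Over the whole shGFP list 25.5% were unshared. Unshared shDnmt3L peaks were then 5 of 22 at Dlx3 and Dlx4, against 1 of 10 in the interval as given. They stayed at 3, now of 6, for Dlx1 and Dlx2 and at 4 of 6 for Dlx5 and Dlx6. Over the whole shDnmt3L list 12.6% were unshared, and nothing is read from these counts.

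**Figure D2:**
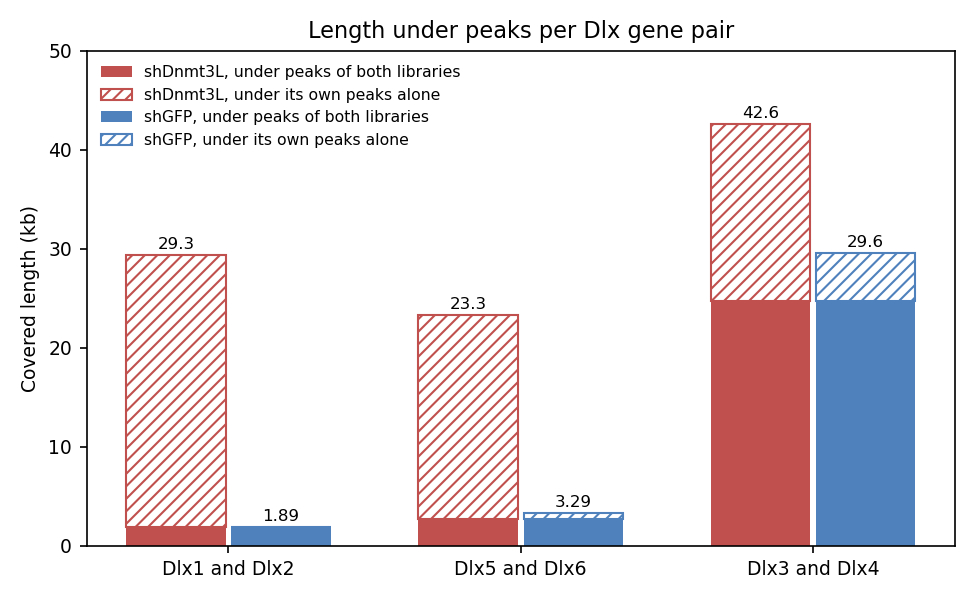
Covered length in kb per Dlx pair, shDnmt3L left of shGFP, with 1 library per bar and no error. The solid part lies under peaks of both libraries and the hatched part under peaks of that library alone; the hatched part is 27.5, 20.6 and 17.9 kb in shDnmt3L for Dlx1 and Dlx2, Dlx5 and Dlx6, and Dlx3 and Dlx4.

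How the extra shDnmt3L length arose as peaks also differed among the pairs. At Dlx1 and Dlx2, 99.8% of the length under shDnmt3L peaks alone lay in peaks without any shGFP overlap, and at Dlx5 and Dlx6 98.4%. At Dlx3 and Dlx4 this was 48.5%, or 8.66 kb, and the other 9.22 kb was in peaks that overlapped a shGFP peak and reached beyond it. No test compared the pairs.

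Of all 20 Dlx peaks in shDnmt3L, 8 had no shGFP overlap, or 40.0% (exact Clopper-Pearson 95% interval 19.1 to 63.9%). Over the whole shDnmt3L list this share was 12.6%. Of the 14 Dlx peaks in shGFP, 2 had no shDnmt3L overlap, or 14.3% (1.78 to 42.8%), against 25.5% of the whole shGFP list. The intervals cover counting error only and take neighbouring peaks as independent. The shares were part of what led to the choice of these genes, so nothing is read from their distance to the list.

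Peaks of 10 kb or more numbered 2 among the Dlx peaks of shDnmt3L and 0 among those of shGFP. Such peaks made up 0.535% of the shDnmt3L list and 0.0524% of the shGFP list. At a minimum of 8 kb, 4 Dlx peaks of shDnmt3L and 0 of shGFP were counted. Of the whole lists, 1.05% in shDnmt3L and 0.148% in shGFP were that wide. This minimum lies just below the Dlx3 and Dlx4 peaks of 8321 and 8664 bp, so the count depends on it. Of the 4 peaks, 3 had no shGFP overlap, and 0.369% of the shDnmt3L list was that wide and unshared. The widest shGFP peak was 1887 bp at Dlx1 and Dlx2, 1910 bp at Dlx5 and Dlx6 and 4570 bp at Dlx3 and Dlx4. The widest shDnmt3L peak was 11.6 times as wide at the first pair, 6.63 times at the next and 1.90 times at the last. Outside these wide peaks, the Dlx peaks of shDnmt3L were between 1483 and 4857 bp wide.

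**Figure D3:**
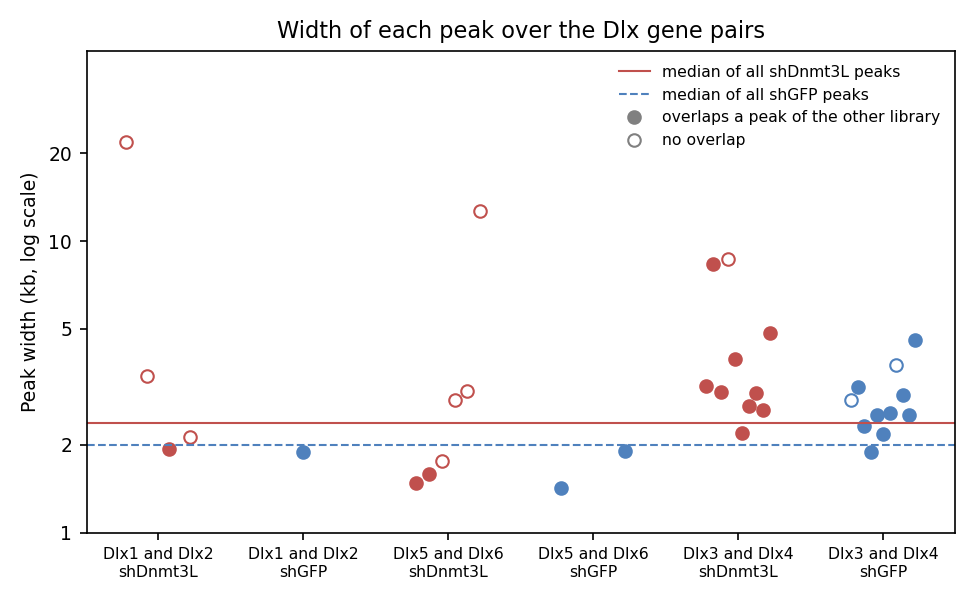
Width in kb, on a log axis, of every peak in the Dlx intervals, shDnmt3L left of shGFP for each pair. Filled points overlap a peak of the other library and open points do not, and lines mark the median of each whole list. The median of all peaks was 2376 bp in shDnmt3L and 1998 bp in shGFP, and the 4 peaks above 8 kb all belong to shDnmt3L.

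Single peaks overlapping a single peak of the other list numbered 12 at the Dlx genes, of which 11 had the larger width in shDnmt3L. Over the whole lists this held for 81.7% of 37952 such matches. The median difference was 85.5 bp at the Dlx genes and 145 bp over the whole lists. At Dlx3 and Dlx4, 3 peaks were over 1 kb wider in shDnmt3L, by 5998, 1404 and 1156 bp, and 6.78% of matches over the whole lists were. The other 9 had differences between −323 and 287 bp (shDnmt3L minus shGFP), and the negative one belonged to the second shared peak of Dlx5 and Dlx6. The start lay exactly 32 bp outward in 3 of the 12, against 20.7% over the whole lists. Peaks of the shDnmt3L list were wider in general, and the part of this in the Dlx widths was not tested.

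The genome was divided into tiles as long as each interval, and tiles with at least 3 kb under the peaks of either library were kept. A covered length at least 2-fold higher in shDnmt3L was found at Dlx1 and Dlx2, where 8.19% of 10440 tiles of 110.0 kb were 2-fold higher in shDnmt3L and 7.61% were 2-fold lower. It was also found at Dlx5 and Dlx6, where 8.08% of 9982 tiles of 120.0 kb were 2-fold higher and 7.67% 2-fold lower. Dlx3 and Dlx4 did not reach 2-fold, a mark passed by 7.9% of 9541 tiles of 130.0 kb, while 7.75% were 2-fold lower. The median tile had 8.31 kb in shDnmt3L and 8.07 kb in shGFP at 110.0 kb, 8.64 and 8.38 kb at 120.0 kb, and 8.96 and 8.76 kb at 130.0 kb, with shDnmt3L given before shGFP each time.

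Dlx1 and Dlx2 had 27.5 kb more under peaks in shDnmt3L, and 25 of the tiles, or 0.239%, had a difference at least as large. Dlx5 and Dlx6 had 20.03 kb more, equalled or passed by 81 tiles, or 0.811%. Dlx3 and Dlx4 had 13.0 kb more, equalled or passed by 246 tiles, or 2.58%. In shGFP, the covered length of Dlx1 and Dlx2 lay at the 3.12th percentile of tiles and that of Dlx5 and Dlx6 at the 9.36th, whereas Dlx3 and Dlx4 lay at the percentile of 94.2. In shDnmt3L the percentiles were 93.9, 87.2 and 97.5 for the pairs in that order. The low shGFP percentiles depend on the 3 kb floor, since tiles below it in both libraries were left out. Dlx1 and Dlx2, with 1.89 kb in shGFP, met this floor only through shDnmt3L, and Dlx5 and Dlx6 had 3.29 kb in shGFP. These percentiles therefore do not show that the control was unusually empty at these pairs. Since the intervals were placed around known genes with the peaks in view and the tiles were not, these shares describe the lists and do not test the genes.

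**Figure D4:**
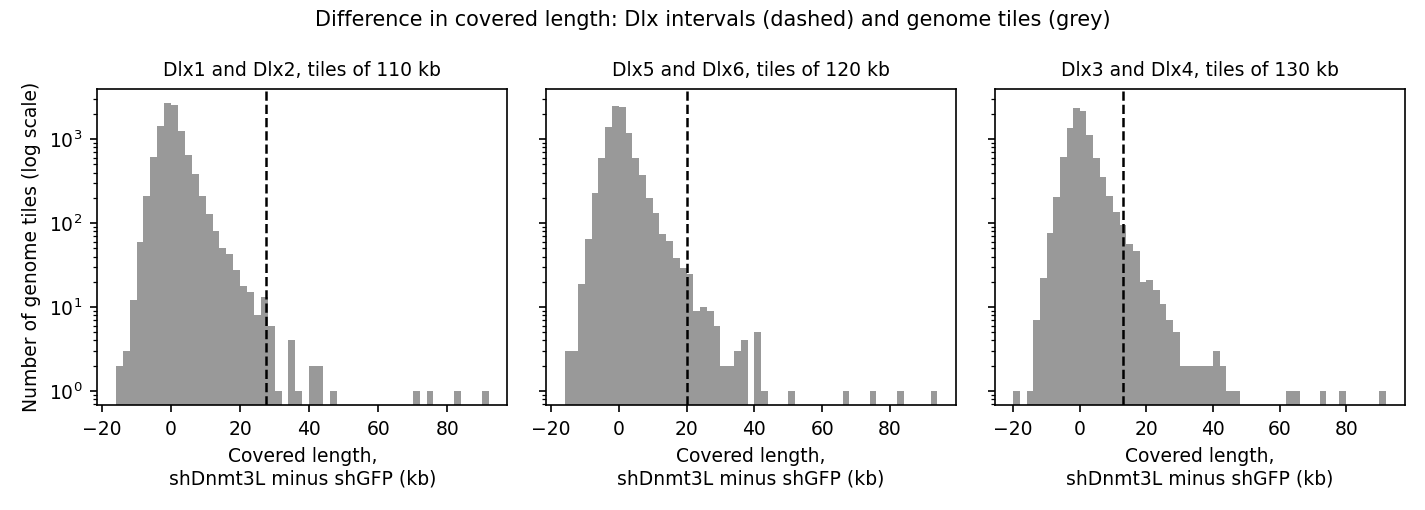
Number of genome tiles, on a log axis, by the difference in covered length (shDnmt3L minus shGFP, kb, in steps of 2 kb), for tiles as long as each Dlx interval. The dashed line marks the Dlx interval, at 27.5 kb for Dlx1 and Dlx2, 20.03 kb for Dlx5 and Dlx6, and 13.0 kb for Dlx3 and Dlx4.

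The ends of the intervals cut through or near few peaks. Just outside the Dlx1 and Dlx2 interval, the nearest shDnmt3L peaks lay 11585 bp to the left and 41253 bp to the right, and the nearest shGFP peaks 11374 and 41474 bp. Around Dlx5 and Dlx6 they were 120365 and 176402 bp away in shDnmt3L, and 120397 and 176785 bp in shGFP. Around Dlx3 and Dlx4 they were 5716 and 2232 bp away in shDnmt3L, and 5748 and 7516 bp in shGFP. Each of these outer peaks had a partner in the other list, except the shDnmt3L peak from 95062233 to 95064953, which had a score of 66.0. The peaks nearest to the ends from inside were the first shared peak of Dlx5 and Dlx6 and the unshared shGFP peak at 94928215, both of which crossed the left end.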

How the data were processed

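For each library the authors deposited 1 list of peaks with positions, names and a score, which is the peak caller's own value. Its lowest values, 50.0 in shDnmt3L and 50.01 in shGFP, are what a p of 1e-05 gives as −10 times its log10. Per the submitters' processing notes, the build was mm9 and the tools were MACS 1.4.1, Bowtie 0.12.7 and CASAVA 1.8, with no role stated. Whether an input control was used and how duplicate reads were handled is not given in the sources used here.

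The members, intervals and measures were chosen with earlier results of these data known. Covered length was the part of an interval under peaks, sharing meant 1 bp or more in common with any peak of the other library, and coordinates count from 1. By rule the text names, per pair and library, the widest and the highest-scoring peak, up to 5 unshared peaks and the nearest outer peaks; the other peaks named were chosen after their values were seen. Tiles began at base 1 of each chromosome, without the mitochondrial genome. They ran to the last whole tile that fitted before the last peak end of either list. The gene and promoter tables were of another build, so no gene was assigned to a peak. The tools were scipy 1.17.1, pandas 2.3.3, numpy 2.4.6 and matplotlib 3.10.9 under Python 3.11.15, and the code for overlaps and tiles was checked on simulated peaks. No test across samples was possible with 1 library per group.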

Additional observations from a re-analysis of the deposited data

How the results depend on the processing

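Of 95 alternative values, 79 stayed within 1.5 times the value given and 16 moved beyond it. Only the 20 differences could change sign, and none of them did. Peak numbers and shares of tiles cannot be negative, and the overlap rule cannot change how many peaks an interval holds. The peak numbers under the other overlap rules are among the 79 and were fixed in advance, so they say nothing on stability. Which library had more peaks at Dlx3 and Dlx4 did change with the widened interval. The differences in covered length (shDnmt3L minus shGFP) kept their sign with scores of 100 or more, with lists of equal length, with peaks within 500 bp merged and with intervals widened by 50 kb. For Dlx3 and Dlx4 the difference was 24.2 kb with the widened interval, against 13.0 kb, and the widest peaks differed by 7.62 kb after merging, against 4.09 kb, since the 8664 bp peak was joined to its neighbour 40 bp away. Over all pairs the difference was 60.5 kb, and 33.1 kb without the Dlx1 and Dlx2 interval, a setting added after the data were seen, as was merging for all pairs. At scores of 100 or more, 1 shDnmt3L peak and 0 shGFP peaks were left at Dlx1 and Dlx2, and the wide peaks of all pairs were kept. The other values that moved were numbers of peaks or of unshared peaks, most of them small. By their construction, the settings removed low-scoring peaks, added flanking peaks, or changed the rule for overlap or for lying inside. Tiles with other boundaries gave 0.276%, 0.795% and 2.58% of tiles with a difference at least as large, for Dlx1 and Dlx2, Dlx5 and Dlx6, and Dlx3 and Dlx4. No paired analysis was possible because shDnmt3L and shGFP had 1 library each. The depth that limits the calling of weak peaks is unknown.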
